A study of Homo sapiens with 4 samples.

Results

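The 10 genes described here were the RNA-binding proteins LIN28A and LIN28B, the mRNA-binding proteins IGF2BP1, IGF2BP2 and IGF2BP3, the chromatin proteins HMGA1 and HMGA2, the exoribonuclease DIS3L2, and the DNA-binding proteins ARID3A and ARID3B. They were found by their symbols in a table of 58274 gene identifiers, and each was on 1 row of that table. The group was chosen by its FPKM levels over these 4 libraries together with the known roles of the genes, so those levels are given as a description and not as a test. All 10 genes were protein-coding and were among the 17137 genes that reached at least 1 FPKM (fragments per 1000 bases of transcript and per 1000000 mapped fragments) in any library.

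The expression values came from RNA-seq of BC1, a human induced pluripotent stem cell (iPSC) line, and of 3 populations sorted from it during hematopoietic differentiation. Undifferentiated BC1 cells were compared with APLNR+ mesoderm cells of day 2, CD31+CD34+ hemogenic endothelial progenitors (HEPs) of day 5 and CD43+ hematopoietic progenitor cells (HPCs) of day 8. The differentiating cells received activin A and BMP4 during the first 2 days, to direct them to mesoderm, and VEGF and bFGF afterwards. All 4 libraries came from this 1 line and each population had 1 library, so no difference below has a replicate check, no p-value is given, and intervals cover counting error only.

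LIN28A and LIN28B bind the precursors of the let-7 microRNAs and block their maturation. The terminal uridylyltransferases TUT4 and TUT7 mark precursors bound by LIN28A with uridines for decay by DIS3L2. Mature let-7 in turn represses the mRNAs of LIN28B, HMGA2, the IGF2BP genes and others, so that LIN28 and let-7 hold each other in check. LIN28B, IGF2BP1, IGF2BP3 and HMGA2 are known as genes of fetal rather than adult hematopoietic stem and progenitor cells. The libraries were made from total RNA for the sequencing of transcripts, and mature let-7 was not measured in them.

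The mature let-7 family is shown first, because the sequence that most of the genes have in common is the match to its seed. The sequences are from RefSeq (GRCh38.p14), and capitals mark the seed, bases 2 to 8.
hsa-let-7a-5p: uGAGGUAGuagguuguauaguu
hsa-let-7b-5p: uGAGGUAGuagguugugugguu
hsa-let-7c-5p: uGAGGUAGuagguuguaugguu
hsa-let-7d-5p: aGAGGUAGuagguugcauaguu
hsa-let-7e-5p: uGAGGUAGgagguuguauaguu
hsa-let-7f-5p: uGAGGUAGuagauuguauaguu
hsa-let-7g-5p: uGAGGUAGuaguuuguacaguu
hsa-let-7i-5p: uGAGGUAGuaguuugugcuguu
hsa-miR-98-5p: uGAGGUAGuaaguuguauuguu

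All 9 sequences had the same seed, GAGGUAG. Its reverse complement, CTACCTC, was searched on the sense strand of 1 annotated 3′ UTR per protein-coding gene (GENCODE 29). It was present in 9 of the 10 genes, DIS3L2 being the exception, against 8.59% of 18944 protein-coding genes. Among the 11083 genes with a 3′ UTR of 567 to 6206 bases, which is the range of the 10 genes, the share was 11.3%. The median 3′ UTR was 876.5 bases over all protein-coding genes and 2680 in the 10 genes, and this range did not match the 10 genes on length. Several of these genes are textbook let-7 targets and may have been grouped for that reason, so the count is a description of the group. The first match of each of 8 genes is printed 5′ to 3′ with GRCh38 coordinates, in the sense of the mRNA, with the match in capitals.
LIN28A (chr1:26427347-26427376, plus strand): tgcacagcctattgaaCTACCTCatttttg
LIN28B (chr6:105078811-105078840, plus strand): tacccggttgcaaagtCTACCTCatgcaag
IGF2BP1 (chr17:49051060-49051089, plus strand): ctgtgtgcgaagtaaaCTACCTCaaggtat
IGF2BP2 (chr3:185644214-185644243, minus strand): aaacacacagaagaagCTACCTCaggtgtt
IGF2BP3 (chr7:23311789-23311818, minus strand): gtgcatttttactcaaCTACCTCaggtatt
HMGA1 (chr6:34245828-34245857, plus strand): ttcctctgttcacaaaCTACCTCtggacag
ARID3A (chr19:974510-974539, plus strand): tgctgcctatctctgtCTACCTCaggtctg
ARID3B (chr15:74598100-74598129, plus strand): atatttcaataaacctCTACCTCttcacac

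HMGA2 had 4 matches, and all of them are shown because it was the 1 gene of the group that fell at the last step. The first lay at position 21 of a 3′ UTR of 3003 bases, and the last at position 2521.
HMGA2 (chr12:65963297-65963326, plus strand): cgccaacgttcgatttCTACCTCagcagca
HMGA2 (chr12:65964532-65964561, plus strand): tccccactactcaataCTACCTCtgaatgt
HMGA2 (chr12:65964944-65964973, plus strand): attgacttgcaaagacCTACCTCcagactt
HMGA2 (chr12:65965797-65965826, plus strand): caatcaaaacacactaCTACCTCttaagtc

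LIN28B and IGF2BP1 also had 4 matches each, ARID3A had 2, and LIN28A, IGF2BP2, IGF2BP3, HMGA1 and ARID3B had 1 each. Only 12 protein-coding genes had at least 4 matches (0.0633%), and 3 of them were HMGA2, LIN28B and IGF2BP1. The 10 genes together held 19 matches, or 0.653 per 1000 bases of 3′ UTR, against 0.0623 per 1000 bases over all protein-coding genes. An A followed the match directly in LIN28A, IGF2BP2, IGF2BP3 and the first printed window of LIN28B, IGF2BP1, HMGA2 and ARID3A, but not in HMGA1 or ARID3B. None of the 10 other high-mobility-group genes and none of the 12 other ARID-domain genes examined held a match. A match describes these letters in the annotated 3′ UTR and does not show that a site is used.

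The miR-125 family was searched as well, since its genes lie beside let-7 genes in several clusters and it is known to repress LIN28A. Both members share the seed CCCUGAG, shown in capitals.
hsa-miR-125a-5p: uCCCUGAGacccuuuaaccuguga
hsa-miR-125b-5p: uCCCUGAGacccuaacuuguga

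The reverse complement of this seed, CTCAGGG, occurred in 5 of the 10 genes, against 13.2% of all protein-coding genes and 17.7% of those with a 3′ UTR of 567 to 6206 bases. ARID3B held 5 matches, ARID3A 3, and LIN28A, LIN28B and DIS3L2 1 each. The match of DIS3L2, the gene without a let-7 match, and of LIN28A are shown with the third match of ARID3B. That match was picked as the only 1 of the 5 in ARID3B with an A directly after it.
DIS3L2 (chr2:232336718-232336747, plus strand): atttggtttttaacaaCTCAGGGgtttgtt
LIN28A (chr1:26427243-26427272, plus strand): caggtacatgagcaatCTCAGGGatagcca
ARID3B (chr15:74596930-74596959, plus strand): catgcaggggagacgaCTCAGGGatcgcgg

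**Figure D1:**
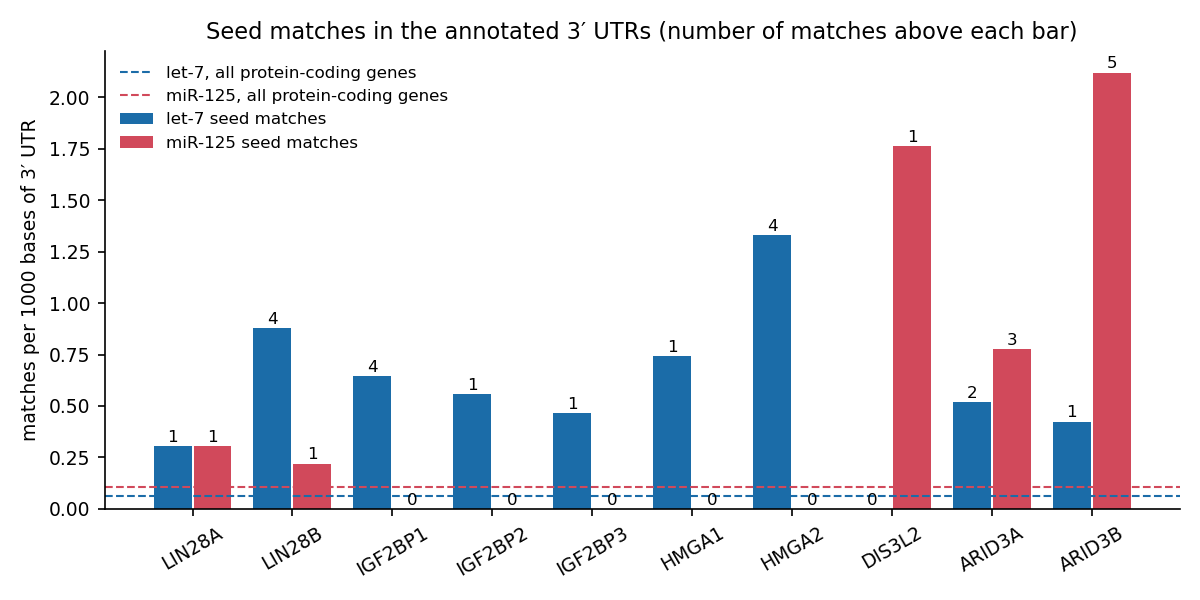
Matches to the let-7 seed (blue) and the miR-125 seed (red) per 1000 bases of annotated 3′ UTR in each of the 10 genes, with the number of matches above each bar and the value over all protein-coding genes as dashed lines (0.0623 for let-7 and 0.107 for miR-125). The let-7 bars of 9 genes stand above their dashed line, HMGA2 is the highest at 1.33, and DIS3L2 has none.

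The libraries held 19700000 to 23600000 mapped fragments, as recovered from the steps between low FPKM values, and 13554 to 14335 genes reached 1 FPKM. APLNR was at 1073 FPKM in APLNR+ cells, 209 in CD31+CD34+ cells and 25 in CD43+ cells, and SPN (CD43) was at 11.7 FPKM in CD31+CD34+ cells and 92.4 in CD43+ cells. CD34 was at 102 FPKM in CD31+CD34+ cells and 42.6 in CD43+ cells, whereas PECAM1 (CD31) was higher in CD43+ cells (126 FPKM) than in CD31+CD34+ cells (93.1). Summed over 6 markers each, pluripotency genes were at 2942, 996, 31.4 and 22.8 FPKM in the order BC1, APLNR+, CD31+CD34+ and CD43+, with SOX2, NANOG and TDGF1 at or under 3 fragments in CD43+ and DPPA4 giving 22.5 FPKM of the last sum. Endothelial genes were at 43.2, 79.9, 2647 and 298 FPKM, hematopoietic genes at 13.8, 6.98, 143 and 1848 FPKM, and mesoderm genes at 2.52, 2218, 217 and 26.8 FPKM. Markers of the endothelial and hematopoietic lists were thus measured in both of the last populations.

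Changes were measured as the difference in log2(FPKM + 1), and a gene is said to rise or fall where this difference was at least 1. From BC1 to APLNR+, 1 of the 10 genes, LIN28A, fell and none rose, while 9.32% of all kept genes fell and 9.15% rose (18.5% in either direction). From APLNR+ to CD31+CD34+ none of the 10 changed, while 11.4% of all kept genes fell and 13.0% rose (24.4%). From CD31+CD34+ to CD43+, HMGA2 was the 1 gene that fell and none rose, while 13.5% of all kept genes fell and 7.63% rose (21.2%). Over the whole course from BC1 to CD43+, 3 of the 10 genes, LIN28A, IGF2BP3 and HMGA2, fell and none rose, while 18.9% of all kept genes fell and 15.2% rose (34.0%). The median differences of the 10 genes were 0.04, -0.21, -0.40 and -0.37 for these 4 comparisons, and those of all kept genes were 0.00, 0.01, -0.08 and -0.06. These counts are shares of 10 chosen genes and are given without a test.

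**Figure D2:**
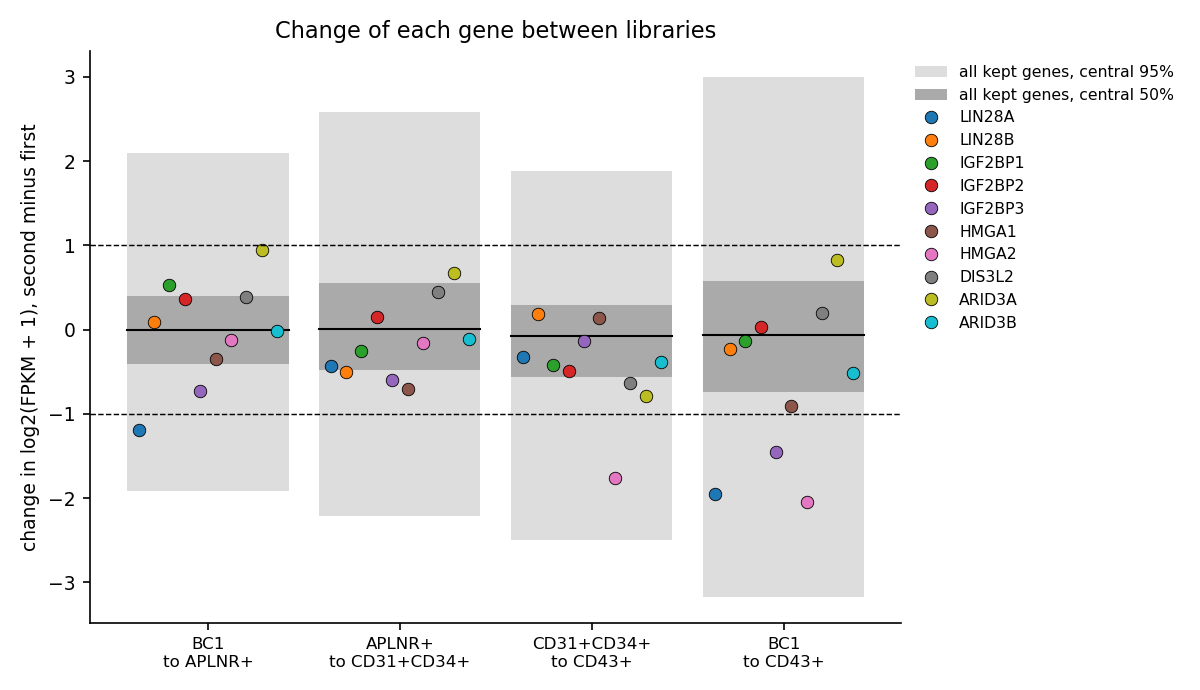
Difference in log2(FPKM + 1), second library minus first, of each of the 10 genes (points) in the 4 comparisons, with the central 95% (light) and 50% (dark) of all 17137 kept genes, their median (line) and the threshold of 1 (dashed). LIN28A at -1.19 in the first comparison, HMGA2 at -1.77 in the third, and LIN28A, IGF2BP3 and HMGA2 in the last lie under the lower dashed line, and no point lies above the upper one.

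LIN28A, on chromosome 1 (GRCh38, 26410778 to 26429722), is the LIN28 protein of pluripotent cells, which binds let-7 precursors in the cytoplasm. BC1 cells had 363 FPKM of it, APLNR+ cells 159, CD31+CD34+ cells 117 and CD43+ cells 92.9. Each library was lower than the one before, and the largest step was the first. The APLNR+ level was 0.437 of the BC1 level (95% interval 0.427 to 0.446), a difference of -1.19 on the log2(FPKM + 1) scale. Since these are bulk libraries, fewer expressing cells and less RNA per cell cannot be told apart. The later steps were -0.44 and -0.33 (the last -0.18 under median ratio scaling), and the CD43+ level was 0.256 of that in BC1 (0.249 to 0.263). By FPKM LIN28A ranked 214 in BC1 and 997 in CD43+ among all genes.

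LIN28B, on chromosome 6 (104936616 to 105083332), is the paralog that is better known from fetal liver progenitors. BC1 cells had 26.2 FPKM of it, APLNR+ cells 28, CD31+CD34+ cells 19.4 and CD43+ cells 22.3. The 4 values lay close together, with CD31+CD34+ the lowest. No step reached the threshold, and the differences were 0.09, -0.51 and 0.19 (the last 0.08 to 0.33 over the scalings tried). The counting interval of the first step included a ratio of 1 (1.07, from 0.990 to 1.16). That interval used a transcript of 2635 bases, while the longest annotated one has 5505, so it is approximate. The CD43+ level of LIN28B was 85.0% of that in BC1. In FPKM LIN28A exceeded LIN28B in every library, with ratios of 13.9, 5.66, 6.02 and 4.17 along the course. LIN28B thus made up 6.73% of the summed FPKM of the pair in BC1 and 19.3% in CD43+. The antisense gene LIN28B-AS1 reached at most 1.29 FPKM.

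The IGF2BP proteins bind mRNAs in the cytoplasm and are known to stabilize them, in part through N6-methyladenosine. IGF2BP1 (chromosome 17, 48997412 to 49055650) was at 43.8 FPKM in BC1 cells, 63.8 in APLNR+ cells, 53.2 in CD31+CD34+ cells and 39.7 in CD43+ cells. It was highest in APLNR+, and its step from BC1 to APLNR+ was 0.53. IGF2BP2 (chromosome 3, 185643739 to 185825056) was at 41.3, 53.5, 59.7 and 42.3 FPKM in the same order. It was highest in CD31+CD34+, 1.12 times its APLNR+ level (1.07 to 1.17), and its CD43+ and BC1 levels could not be separated by counting error (ratio 1.03, 0.971 to 1.08).

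IGF2BP3 (chromosome 7, 23310209 to 23470467) had a different order from its paralogs. From BC1 onwards its levels were 63.1, 37.8, 24.7 and 22.4 FPKM. Each library was lower than the one before, but the last pair was close (ratio 0.908, 0.845 to 0.975) and its difference was 0.01 under median ratio scaling. No single step reached the threshold, with differences of -0.73, -0.59 and -0.13, but over the whole course it fell by 1.45, to 0.356 of the BC1 level (0.334 to 0.378). MALSU1, which overlaps it on the opposite strand, was at 55.6, 49.4, 42.7 and 30.6 FPKM, and the use of strand in counting is not given in the sources used here, so the share of reads that the genes exchange was not tested.

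The summed FPKM of the IGF2BP genes was 148, 155, 138 and 104 along the course, while its make-up differed. IGF2BP3 was the largest contributor in BC1, with 42.6% of the sum, and the smallest in the other libraries, with 24.3%, 18.0% and 21.5%. IGF2BP1 led in APLNR+ with 41.1%. IGF2BP2 led in CD31+CD34+ with 43.4% and in CD43+ with 40.5%, where IGF2BP1 had 38%.

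HMGA1 and HMGA2 bind AT-rich DNA through AT-hooks and change the shape of chromatin. HMGA1 (chromosome 6, 34236873 to 34246231) was at 1744 FPKM in BC1 cells, 1373 in APLNR+ cells, 842 in CD31+CD34+ cells and 929 in CD43+ cells. It had the highest FPKM of the 10 genes in every library and ranked 52 in BC1 and 107 in CD43+ among all genes. Its differences were -0.35, -0.70 and 0.14 (the last 0.02 to 0.29 over the scalings tried), and its CD43+ level was 0.533 of that in BC1 (0.525 to 0.540), a difference of -0.91 that lay just under the threshold. Its processed pseudogenes, which share much of its sequence, reached at most 4.22 FPKM.

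HMGA2 (chromosome 12, 65824131 to 65966295) is expressed in embryonic tissues and is a regulator of the self-renewal of fetal stem cells. BC1 cells had 39.5 FPKM of it, APLNR+ cells 36.2, CD31+CD34+ cells 32.3 and CD43+ cells 8.79. The first 3 libraries lay close together and the CD43+ library stood apart below them. From CD31+CD34+ to CD43+ it fell by 1.77, to 0.272 of its level (0.238 to 0.310), and the CD43+ level was 0.223 of that in BC1 (0.195 to 0.254). Over the same step HMGA1 was 1.10 times as high (1.09 to 1.12) in FPKM as deposited, and the HMGA1 to HMGA2 ratio in FPKM was 44.1, 37.9, 26.0 and 106 in the 4 libraries. The endothelial marker sum was 2647 FPKM in CD31+CD34+ and 298 in CD43+ over the same step, and its part in the HMGA2 difference was not tested. The counting interval used a transcript of 1788 bases, while the longest annotated one has 8094, so it is approximate.

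DIS3L2 (chromosome 2, 231961245 to 232344350) degrades uridylated RNAs, let-7 precursors among them. From BC1 onwards its levels were 9.90, 13.2, 18.3 and 11.5 FPKM. It was highest in CD31+CD34+, and the differences of 0.38, 0.44 and -0.63 were all under the threshold. Its BC1 and CD43+ levels could not be separated by counting error (ratio 1.16, 0.946 to 1.43). It had the fewest estimated fragments of the 10 genes in BC1, about 173, so its intervals were the widest. These estimates used a transcript of 1149 bases, while the longest annotated one has 3501, so they are approximate. A longer transcript would give more fragments and narrower intervals.

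ARID3A (chromosome 19, 925781 to 975934), known as Bright from its role in immunoglobulin transcription in B cells, was the member that was higher at the end than at the start by the widest margin. BC1 cells had 56.4 FPKM of it, APLNR+ cells 110, CD31+CD34+ cells 175 and CD43+ cells 101. It was highest in CD31+CD34+ and lowest in BC1. The first step was 1.94-fold (1.87 to 2.02), a difference of 0.95 just under the threshold, the second was 1.59-fold (1.55 to 1.64) and the third was 0.577-fold (0.560 to 0.594).

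ARID3B (chromosome 15, 74541177 to 74598131), its paralog, was at 55.2, 54.5, 50.6 and 38.4 FPKM in the order BC1, APLNR+, CD31+CD34+ and CD43+. The first pair could not be separated by counting error (ratio 0.988, 0.948 to 1.03), and CD43+ was the lowest. The paralogs had nearly the same FPKM in BC1, with a ratio of ARID3A to ARID3B of 1.02, and the ratios in the later populations were 2.01, 3.45 and 2.62. ARID3C, the third member of the family, was at or under the floor of 3 fragments in every library.

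**Figure D3:**
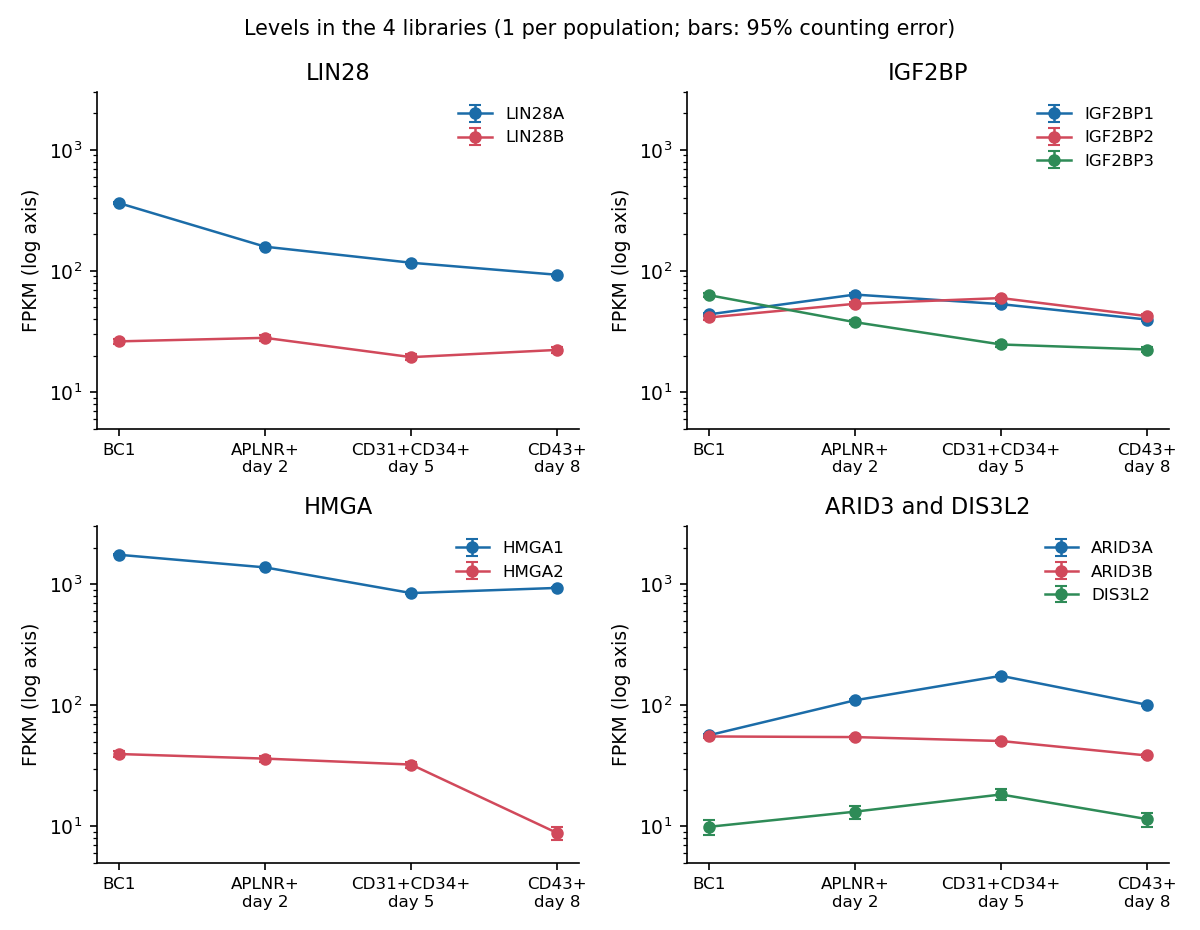
Levels of the 10 genes in FPKM (log axis) in BC1 and in APLNR+, CD31+CD34+ and CD43+ cells, with 1 library per point and bars for the 95% counting error. LIN28A and IGF2BP3 go down from left to right, HMGA2 is level until CD31+CD34+ (32.3) and then at 8.79, and ARID3A peaks at 175 in CD31+CD34+.

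The 10 genes were compared with 6 pluripotency markers by the level that CD43+ cells held as a percentage of BC1. The 10 genes were at 22.3% (HMGA2) to 178% (ARID3A), with a median of 77.3%. LIN28A, the gene most often used as a pluripotency marker among them, was at 25.6%. POU5F1 was at 0.0118%, L1TD1 at 0.0479% and DPPA4 at 7.79%, while SOX2, NANOG and TDGF1 were at or under the 3-fragment floor, which allows 0.0359%, 0.966% and 0.0321%. In APLNR+ cells the order was different for some markers, since TDGF1 was still at 95.8% and L1TD1 at 61.2%, above LIN28A at 43.7%. The 10 genes were chosen partly by these levels and the markers as genes of pluripotent cells, so the contrast is a description. From BC1 to CD43+ the median difference of the 10 genes (-0.37) was lower than that of all kept genes (-0.06).

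**Figure D4:**
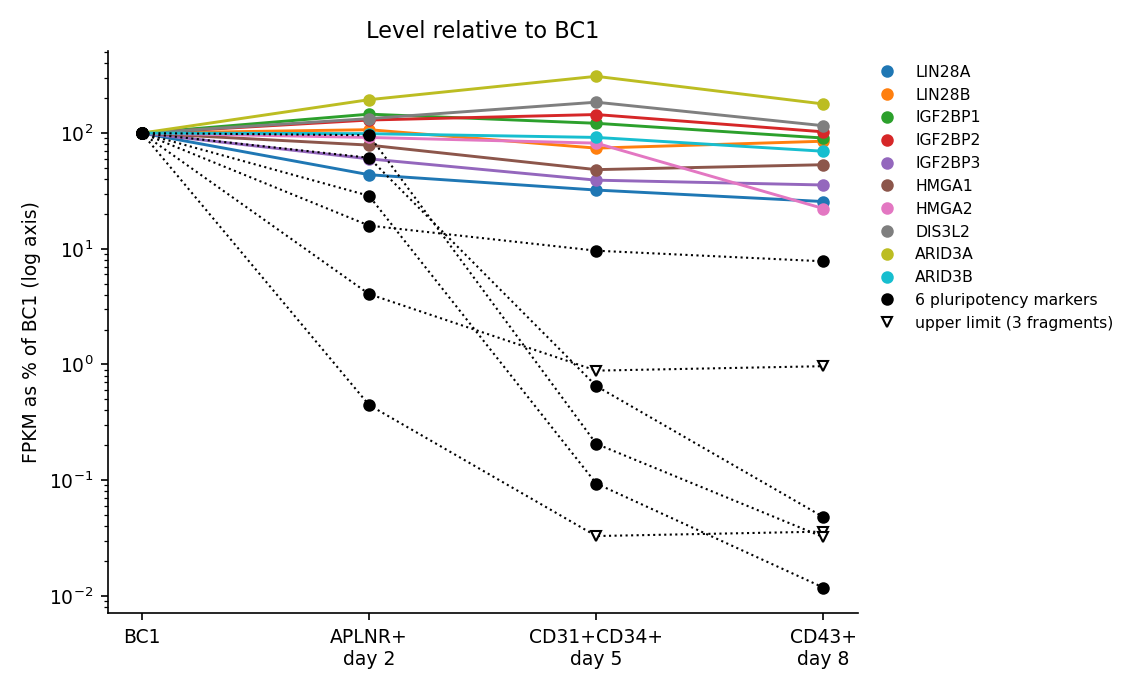
FPKM of the 10 genes (solid, coloured) and of 6 pluripotency markers (dotted, black) as a percentage of BC1, on a log axis, with open triangles for upper limits set by the 3-fragment floor. In CD43+ cells the 10 genes lie between 22.3% and 178%, and the markers lie at or under 7.79%.

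The range of a gene over the 4 libraries, as the highest minus the lowest log2(FPKM + 1), had a median of 0.94 for the 10 genes, from 0.51 (LIN28B) to 2.05 (HMGA2). The median was 1.12 for all kept genes and 0.92 for the 6988 genes with at least 10 FPKM in BC1. The range reached 1 in 50.0% of the 10 genes, 57.6% of all kept genes and 45.3% of those 6988. The latter set was not matched on level, and DIS3L2, at 9.90 FPKM in BC1, lies outside it.

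Other genes of the let-7 pathway were described from lists of their known roles. Of 17 genes of microRNA processing, 1 fell and none rose from BC1 to APLNR+, none changed from APLNR+ to CD31+CD34+, and at the last step 2 rose and 1 fell. Among all kept genes 18.5%, 24.4% and 21.2% changed at these steps. DROSHA, the nuclear nuclease that releases precursors, was at 39.6, 33.4, 26.6 and 25.9 FPKM, and its partner DGCR8 at 19, 19.6, 11.5 and 16.2. DICER1, which cuts the precursors, was at 9.76, 9.47, 10.6 and 11.4 FPKM. None of their differences reached the threshold.

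TUT4 was at 23.0, 40.4, 36.3 and 26.1 FPKM, highest in APLNR+. TUT7 was at 4.27, 5.49, 7.69 and 14.2 FPKM, higher in each library than in the one before, and over the whole course it rose, to 3.33 times its BC1 level (2.92 to 3.82). TRIM25, a ubiquitin ligase that helps TUT4 act on let-7 precursors, fell from 10.3 to 3.36 FPKM at the first step and rose from 2.87 to 57.2 FPKM at the last. It is also an interferon-response gene. ADAR, the RNA-editing enzyme, rose from 47.1 to 99.0 FPKM from CD31+CD34+ to CD43+, and AGO4, an Argonaute protein, fell from 11.0 to 4.14.

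DIS3 and DIS3L, the nucleases related to DIS3L2 that work with the exosome, were at 12.2, 13.8, 16.4 and 12.3 FPKM and at 5.34, 5.96, 4.30 and 5.42 FPKM. Of 16 genes of RNA decay, 3 fell from APLNR+ to CD31+CD34+, while 11.4% of all kept genes fell. None of the 16 changed at the first or last step, while 18.5% and 21.2% of all kept genes did. The 3 genes were the exosome subunits EXOSC5 (33.6 to 12.4 FPKM), EXOSC4 (60.5 to 24.3) and EXOSC3 (62.6 to 26.1).

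Of 9 transcripts known to host or neighbour let-7 genes, 5 were among the kept genes. MIRLET7BHG was at 0.21 FPKM and MIR100HG at 0.31 FPKM in BC1, and both were at or under the floor of 3 fragments in the other libraries. LINC01465 was at 1.67, 1.64, 0.42 and 0.67 FPKM. MIR99AHG was listed at 0 in BC1 and APLNR+, rose to about 13 fragments in CD31+CD34+ cells and was under the floor in CD43+ cells, and MIRLET7DHG was at 0.58 FPKM in CD31+CD34+ cells and under the floor elsewhere. The protein-coding hosts HUWE1 (49.7 to 55.3 FPKM) and WDR82 (28.2 to 36 FPKM) stayed under the threshold, and SPACA6 rose from 2.58 to 7.72 FPKM at the first step. Levels of host transcripts do not give the levels of mature let-7.

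Of 34 other genes known as let-7 targets, 4 rose and 3 fell at the first step, 1 rose and 6 fell at the second, and 5 rose and 6 fell at the last. In all, 7, 7 and 11 of the 34 changed, while 18.5%, 24.4% and 21.2% of all kept genes did. TRIM71, a stem cell protein and the gene with the most let-7 matches (6), was at 68.7, 41.8, 18.8 and 14.2 FPKM along the course, and it fell at the second step. Its order of libraries was that of LIN28A and IGF2BP3. USP44, a deubiquitinase of undifferentiated cells, fell from 61.1 to 2.61 FPKM at the first step, while CDK6 (2.87 to 13.4) and HIC2 (9.49 to 29) rose.

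At the second step the cell cycle phosphatase CDC25A fell from 35.5 to 13.6 FPKM, MYCN from 42.5 to 17.5 and HRAS from 86.0 to 37.2. At the last step MYCN rose from 17.5 to 108 FPKM, MYC from 57.9 to 141 and THBS1, a platelet granule protein, from 1.47 to 579. CCND1, a cyclin, fell from 93.0 to 14.2 FPKM at the same step, TGFBR1 from 13.5 to 5.26 and NR6A1, a germ cell nuclear receptor with 5 let-7 matches, from 17.2 to 7.33. The counts at the last step stand beside 7.63% of all kept genes that rose and 13.5% that fell. A match to the let-7 seed was present in 18 of the 33 list members with a 3′ UTR (54.5%). Among other genes named from the list, HIC2, which rose at the first step, had 4 matches, CDC25A had 2 and TGFBR1 had 1. USP44, CDK6, MYCN, HRAS, THBS1 and CCND1 had 0. A link between matches and changes was not tested.

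Of 14 kept genes whose mRNAs are known to be bound by IGF2BP proteins, 4 rose and 1 fell at the first step, 4 rose and 1 fell at the second, and 2 rose and 4 fell at the last. Among all kept genes 18.5%, 24.4% and 21.2% changed at these steps. IGF2, the growth factor from whose mRNA the family has its name, was at 3.04, 10.6, 35.9 and 40.3 FPKM, and its CD43+ level was 13.3 times that of BC1 (11.4 to 15.6). CD44 rose from 2.03 to 13.1 and then to 97.5 FPKM, and fell to 14.3 in CD43+, and FSCN1, an actin-bundling protein, fell from 797 to 109 FPKM at the last step. ACTB fell from 2235 to 1032 FPKM at the second step and rose to 3021 at the last. Of 17 writers, erasers and readers of N6-methyladenosine, none rose or fell by the threshold in any of the 4 comparisons. From BC1 to CD43+, 34.0% of all kept genes changed.

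Among 10 other high-mobility-group genes, HMGN5 fell from 25.6 to 10.2 FPKM at the first step, and HMGB3 fell from 178 to 68.6 at the second. None of them changed at the last step, at which HMGA2 fell and 21.2% of all kept genes changed. Of 11 kept ARID-domain genes other than ARID3A and ARID3B, JARID2, a Polycomb cofactor, fell from 75.2 to 12.6 FPKM at the first step, 3 rose at the second and none changed at the last. Among all kept genes 9.32% fell at the first step, 13.0% rose at the second and 21.2% changed at the last.

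LIN28B is known to act on the switch from fetal to adult globin, in part through BCL11A, a repressor of gamma globin. BCL11A was at 8.89, 8.93, 0.86 and 4.22 FPKM along the course. BCL11A fell at the second step and rose at the last, while LIN28B stayed between 19.4 and 28 FPKM. It was examined in a list that also held globin genes, MYB, KLF1 and a few other genes. Of 11 kept genes of this list, 10 rose from CD31+CD34+ to CD43+, while 7.63% of all kept genes rose. HBZ, HBG1, HBD, HBB and CA1 reached 1 FPKM only in CD43+, so they passed the filter only through the library in which they were high. The count is therefore a description and cannot be weighed against that share. The 10 included the embryonic globin gene HBE1 (10.6 to 5271 FPKM), the fetal globin gene HBG2 (9.69 to 5256) and the embryonic globin gene HBZ (0.44 to 474). A link of these rises to LIN28B or BCL11A was not tested. HBG2 shares much of its sequence with HBG1, and how reads were divided between them is not given in the sources used here.

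For 7 of the genes the protein-coding genes with the most similar profile were sought among 8922 candidates, as the Euclidean distance between log2(FPKM + 1) values over the 4 libraries after each gene's mean was taken off. LIN28A was closest to ZNF398 (0.192), IGSF9 (0.202) and SLC39A10 (0.25), and only 3 genes lay within 0.25 of it. HMGA2 was closest to USP54 (0.154), KHDRBS3 (0.159) and FMNL2 (0.170), with 13 genes within 0.25. IGF2BP3 was closest to SMS (0.103), SRXN1 and GSPT2, with 28 genes within 0.25, and ARID3A to FKBP7 (0.0607), STRA6 and DCTN3, with 27.

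The flatter genes had many more genes near them. IGF2BP1 was closest to ESPL1 (0.0155), AURKA (0.0189) and KIAA1191 (0.0403), with 169 genes within 0.25. IGF2BP2 was closest to ATG13, AP1G1 and FKBP8, with 210, and LIN28B to DDX23, RBM17 and STOML2, with 333. With 4 libraries and 8922 candidates, a small distance is not unusual.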

How the data were processed

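RNA-seq libraries of BC1 cells and of 3 populations sorted from them were analysed, 1 library per population. The authors deposited gene-level FPKM values. That these are FPKM was read from how the study labels its plots and checked against the values. The submitters' processing notes list BWA, Bowtie, RSEM and hg19 without roles or versions. The loci in the table did not follow hg19: of 58274 identifiers, 58011 (99.5%) were found in GENCODE 29, and of 55647 of the same version 55645 had the same start and end, so GRCh38 positions, counted from 1, are given. Strand use is not given in the sources used here. Rows of the 90 identifiers on more than 1 row were summed. Every column of expression values was used.

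Values were analysed as log2(FPKM + 1), which understates the change of low genes, for genes that reached 1 FPKM in any library, with a threshold of 1. Depth was recovered from genes of a single transcript of at least 1000 bases, whose low FPKM values step by whole fragments. Of these values, 84.8% to 86.4% differed by at most 0.1 from a whole number of fragments other than 0. The method was tested on simulated data. Fragments per gene, from the median coding transcript, gave exact Clopper-Pearson 95% intervals for ratios, for counting error only, and 3 fragments served as the floor. No test between populations was possible with 1 library each.

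The genes and lists were chosen with earlier results of these data known. All 10 genes were named. From each list the text names some of the 3 largest changes per direction and step among genes of at least 10 FPKM, genes with fixed roles in the LIN28 and let-7 pathway, let-7 host transcripts, BCL11A and IGF2. For 3′ UTRs, 1 basic coding transcript per gene was used, by APPRIS rank and then UTR length. MIRLET7A1HG was not analysed here, and a few list genes are not reported here. Other pseudocounts, filters, thresholds, scalings and ways to combine rows were tried. Python 3.11.15, numpy 2.4.6, pandas 2.3.3, scipy 1.17.1 and matplotlib 3.10.9 were used.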

Additional observations from a re-analysis of the deposited data

How the results depend on the processing

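With a threshold of 2 in place of 1, 0 of the 10 genes changed from BC1 to APLNR+ (4.98% of all kept genes), 0 from CD31+CD34+ to CD43+ (6.61%) and 1, HMGA2, from BC1 to CD43+ (12.1%), against 1, 1 and 3. Other pseudocounts, filters, scalings and ways to combine rows left the counts and the genes as they were, but not the shares of all genes beside them. At the threshold of 1, the share from BC1 to APLNR+ was 28.7% with a pseudocount of 0.1, 7.25% with a pseudocount of 5 and 5.43% without a filter, against 18.5%, so that 1 of 10 genes lay below or above it by setting. From CD31+CD34+ to CD43+ these shares were 31.5%, 9.78% and 6.23%. With a pseudocount of 5, LIN28A (-1.91) and not HMGA2 (-1.69) had the largest difference from BC1 to CD43+. Scaling to a common sum per library (TPM) moved the median of all kept genes by -0.11 from CD31+CD34+ to CD43+, where the difference of HMGA1 was then 0.02 and not 0.14, that of LIN28B 0.08 and not 0.19, and that of IGF2BP3 -0.25 and not -0.13. Median ratio scaling moved 18 of 40 differences by more than their counting error and called no other gene. At the last step it gave -0.18 for LIN28A, 0.33 for LIN28B, -0.27 for IGF2BP1, 0.29 for HMGA1 and -0.24 for ARID3B. Under scaling to a common sum, differences near 0 changed sign for ARID3B (-0.02 to 0.0047, first step) and IGF2BP2 (0.03 to -0.03, whole course). Under median ratio scaling, that of IGF2BP3 changed sign (-0.13 to 0.01, last step). For the let-7 target list at the last step the median was -0.16 and the mean 0.11. No paired analysis was possible because each population had 1 library, and no replicate could be left out. The spread between cultures is unknown, and genes of few fragments such as DIS3L2 are limited by depth.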
